A study of Mus musculus with 9 samples.

Results

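The serpins (serine protease inhibitors) were taken as every gene in the deposited count table whose symbol starts with Serpin, the pseudogene Serpina4-ps1 included, which gave 69 of 55401 genes. By the clade letter in the symbol, 29 belonged to clade A, 29 to clade B, 1 each to clades C, D, G and H, 3 to clade E, and 2 each to clades F and I. Of the 69 genes, 38 passed the filter on low counts and were tested, and 31 did not pass. Among the 31, 7 had no counts in any library and 24 had totals of at most 38 counts over all libraries.

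RNA of whole livers of female mice was sequenced in 9 libraries, 3 per group, each described as a liver of its own. The growth protocol, given for every sample, names 6-week-old mice at the start. In the HCC groups the mice received a tail-vein hydrodynamic injection of oncogene plasmids with the sleeping beauty transposase under the CMV promoter, which inserts them into the genome of liver cells. The labels' protocol and the study's methods name plasmids of HA-tagged myr-AKT and N90-β-catenin, each under EF1α, and Nras-v12 under Caggs. The study used a RAS/AKT and a β-catenin/AKT model, and its methods give the sequenced livers as RAS/AKT-induced HCC. The untreated HCC livers (replicates 2, 3 and 4) received a blank AAV8 vector, and the miR-22-treated HCC livers (replicates 2, 3 and 4) received AAV8-miR-22, a vector with a CMV promoter, both by vein 1 week after the oncogenes. Livers were taken 5 weeks after the oncogenes, 4 weeks after the vector. Healthy livers (replicates 1, 2 and 3) carried no oncogene or vector, and the labels give no time for them. The growth protocol names the strain as FVB/N, the strain field as C57BL/6, and the genotype field reads WT for healthy livers and WT with HCC for both HCC groups. The oncogenes and an injected AAV8 vector were common to both HCC groups, the vector being blank in one and carrying miR-22 in the other. Untreated HCC therefore differed from healthy livers by the oncogenes and the blank vector together.

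Serpins are folded in a strained state with an exposed reactive loop near the C-terminus. An inhibitory serpin offers this loop as bait, the protease cuts it, and the loop snaps into the body of the serpin and carries the distorted protease with it. Hepatocytes secrete the plasma serpins of clades A, C, D, F and G, which hold coagulation, fibrinolysis, complement and neutrophil proteases in check, and several members carry hormones or guide collagen folding in place of inhibition. Clade B serpins lack a classical secretion signal and act mostly inside cells. In mice the ancestral α1-antitrypsin and α1-antichymotrypsin genes have multiplied into the tandem copies Serpina1a to Serpina1e and Serpina3a to Serpina3n.

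The coding windows below show how the copies differ in the part of the protein that meets the protease. Each is 30 bases, 5′ to 3′ on the coding strand, of the reactive loop exon, starting 12 codons after the conserved hinge glutamate, from the GRCm39 genome and GENCODE vM39 coding sequences. Capitals mark bases that differ from Serpina1a among the Serpina1 copies, and from Serpina3k among the Serpina3 copies.
Serpina1a (chr12:103820030-103820059, minus strand): caaatggttcctatgtctatgccccctatc
Serpina1b (chr12:103694597-103694626, minus strand): GaaGCCgttcctatgtctatgccccctatc
Serpina1c (chr12:103861367-103861396, minus strand): cTaGCCgttcctTATtctatgccccctatc
Serpina1d (chr12:103730035-103730064, minus strand): caaGtCgCtActTATtctatgccccctatc
Serpina1e (chr12:103913373-103913402, minus strand): caaGGCgGtTTtTtgtctatgccccctatc
Serpina3k (chr12:104311558-104311587, plus strand): attggtggcattcgtaaggccgtattacca
Serpina3m (chr12:104360058-104360087, plus strand): attTTtggcTttcgtTCTAGAAGattacAa
Serpina3n (chr12:104379737-104379766, plus strand): aAATTtgTcCCAATGTCTgcGAAaCtGTAC

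In these windows Serpina1b differed from Serpina1a at 4 of 30 bases and Serpina1c, Serpina1d and Serpina1e at 7 each, all within the first part of the window, while the run that follows was shared. Serpina3m differed from Serpina3k at 12 bases and Serpina3n at 22. The Serpina1 copies shared 38.8 to 63.9% of their 31-base words with other serpin genes in the GENCODE vM39 transcripts. They also shared 22.4 to 39.5% with gene IDs outside the listed serpins, Serpina1a 32.2% with Gm61267 alone, which summing the copies does not remove. Serpina10 shared 29.6% with Ppp4r4 and Serpina3g 38.9% with Gm56487. In this release, 30.5 to 51.3% of the words of each Serpina1 copy were unique to it. Counts of single Serpina1 copies are therefore uncertain, and summed values are given beside them.

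Libraries held 16664659 to 23908392 counts. Akt1 read at 103 to 109 TMM-normalized CPM (library-size-scaled counts) in the healthy group, 1170.1 to 1673 in the untreated and 671 to 1104 in the treated HCC group. Nras read at 26.8 to 29.6, 63.3 to 77.3 and 53.3 to 55.3 CPM. All 6 HCC libraries thus stood above the healthy ones for both genes, whose counts were not split into injected and endogenous transcripts. The 11 hepatocyte marker genes found summed to 152506 to 158016 CPM (healthy), 62134 to 79103 CPM (untreated) and 95342 to 117119 CPM (treated). Of these, 9 of 11 were lower in untreated HCC and 5 of 11 higher after miR-22, against 18.1% and 8.32% of all tested genes. The 6 cholangiocyte markers summed to 30 to 41.9 CPM (healthy), 3327 to 6216 CPM (untreated) and 1563 to 2702 CPM (treated), and 5 of the 6 were higher in untreated HCC, with Krt19 not called. Spp1 alone made up 76.2 to 79.1% of this sum in the healthy and 97.3 to 98.1% in the HCC libraries, and the other 5 markers summed to 6.26 to 10 CPM (healthy), 88.2 to 139 CPM (untreated) and 36.3 to 60.4 CPM (treated). The 10 stellate cell and myofibroblast markers summed to 353 to 395 CPM (healthy), 1063 to 1254 CPM (untreated) and 827 to 996 CPM (treated). Of them, 7 were higher and 2 lower in untreated HCC. After miR-22, 2 were higher and 2 lower, so they did not move back as a set. The sums of these lists moved with the serpin groups described next, and their part in the serpin values was not tested. In whole-liver RNA, fewer cells of a type and less RNA per cell cannot be told apart.

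Serpin transcripts took a smaller share of liver RNA in untreated HCC and an intermediate share after miR-22. The 69 genes together held 1.45 to 1.86% of all counts in the healthy libraries (mean 1.59 ± 0.236, SD, n = 3), 0.578 to 0.827% (0.687 ± 0.127) where HCC was untreated, and 1.09 to 1.42% (1.28 ± 0.168) where it received miR-22. The untreated libraries did not overlap either of the other groups, and the highest treated library fell just short of the lowest healthy library. Clade A carried most of this, with 0.94 to 1.34% of counts in the healthy, 0.234 to 0.43% in the untreated and 0.665 to 0.952% in the treated libraries. Clade B moved the other way at a far lower level, with means of 0.00355%, 0.0171% and 0.0118%.

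**Figure D1:**
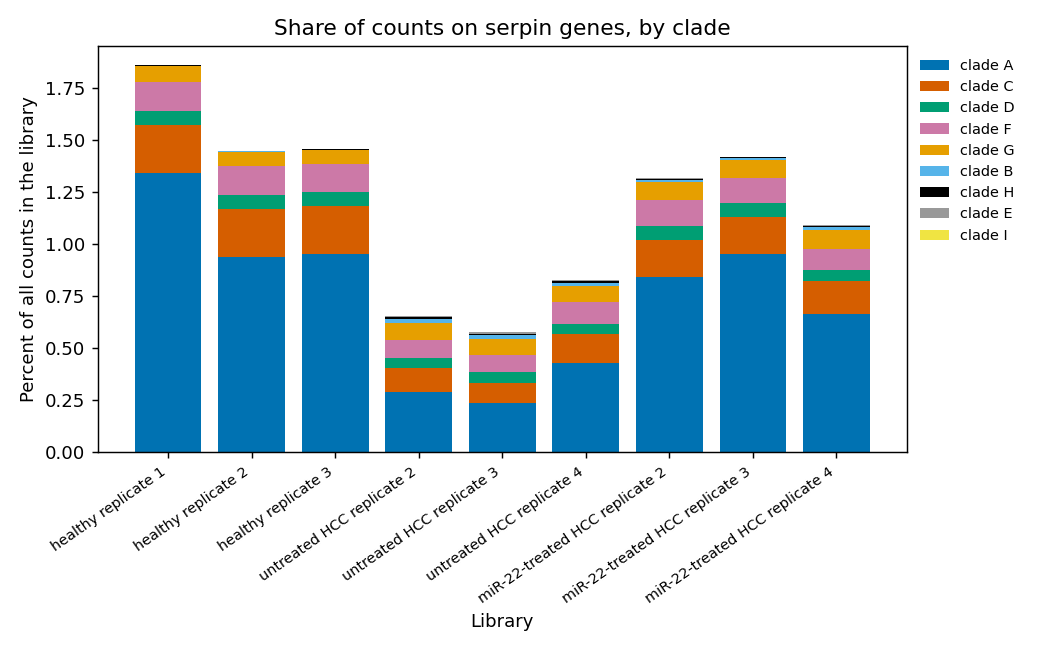
Percent of all counts in each of the 9 libraries (a bar per liver) that fell on serpin genes, stacked by clade. Healthy bars reach 1.45 to 1.86%, untreated HCC bars 0.578 to 0.827% and miR-22-treated bars 1.09 to 1.42%, and the difference lies mainly in the clade A segment.

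Serpina3k alone made up 38.6 to 50.2% of serpin counts in the healthy, 15.7 to 30.8% in the untreated and 38.0 to 44.7% in the treated libraries. Serpinc1, antithrombin, held 12.4 to 15.9%, 16.7 to 17.5% and 12.8 to 14.2% of serpin counts in the same order. Per kilobase of annotated exon, the healthy mean levels were highest for Serpina3k at 1434 CPM per kb, followed by Serpina1b at 332, Serpind1 at 311, Serpinc1 at 309 and Serping1 at 260.1. In untreated HCC the order of these per-length levels was Serpina3k at 259.7 CPM per kb, Serping1 at 219.6, Serpind1 at 164, Serpinf2 at 127 and Serpinc1 at 119, with Serpina1b down to 65.6. After miR-22, Serpina3k again stood first at 986 CPM per kb, with Serping1 at 293 and Serpind1 at 252 next. Serpina1b, Serpind1 and Serpinc1 in healthy livers lay between 309 and 332 CPM per kb, and the order of neighbouring ranks was not tested.

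**Figure D2:**
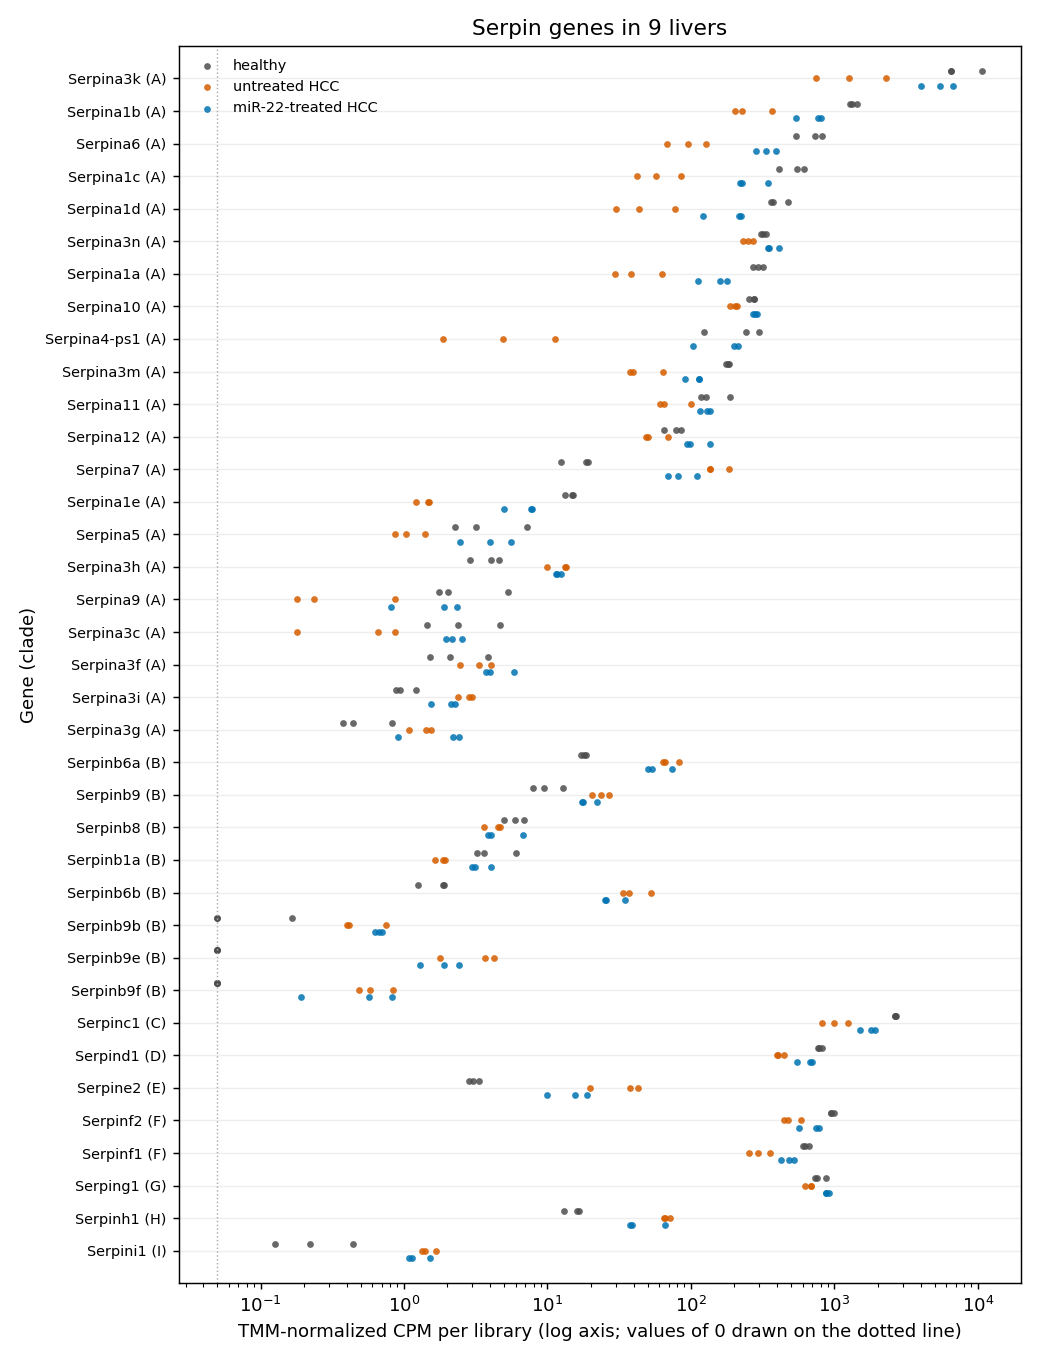
TMM-normalized CPM (log axis) of 37 tested serpin genes in each library, sorted by clade and healthy level, with 3 points per group. Plasma serpins of clades A, C, D and F sit lowest in untreated HCC, whereas Serpina7, Serpinb6b, Serpine2 and Serpinh1 sit lowest in healthy livers (dotted line, values of 0).

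Tests used the quasi-likelihood method of edgeR with Benjamini-Hochberg adjustment over the 15717 genes that passed the filter, and a gene counted as changed where its adjusted p was under 0.05 and its fold over 1.5. In untreated HCC against healthy livers, 14 of the 38 tested serpins rose and 18 fell, where 22.7% of all tested genes rose, 18.1% fell and 40.8% changed in either direction. The libraries of the groups did not overlap for 36 of the 38, against 65.3% of all tested genes. The median log2 fold change was -0.46 over the serpins and 0.01 over all tested genes. In miR-22-treated against untreated HCC, 18 rose and 3 fell, against 8.32% and 5.47% of all genes (13.8% in either direction), with a median of 0.52 against 0.00 and 24 serpins without overlap against 39.3% of all genes. Treated HCC still differed from healthy livers in 14 higher and 8 lower serpins, where 16.9% and 7.05% of all genes were called (24% in either direction), with 28 not overlapping against 48.8% and a median of -0.01 against 0.02. The untreated HCC libraries serve in both of the first comparisons, so a rise in the second is not independent of a fall in the first. Serpina3g, Serpinb9b, Serpinb9e, Serpinb9f and Serpini1 passed the filter through the HCC libraries, and Serpina3c and Serpina9 through the healthy and treated ones, so they entered the test through groups where they were high and their calls are no support for the counts above.

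By clade, 13 of 21 tested clade A genes fell and 4 rose in untreated HCC (median log2 fold change -1.94), and 14 rose and 1 fell after miR-22 (median 1.41). In clade B, 6 of 8 rose and 1 fell in untreated HCC (median 2.48), and after miR-22 1 rose and none fell (median -0.27). Against healthy livers, treated HCC had 4 clade A genes higher and 7 lower (median -0.34) and 6 clade B genes higher with none lower (median 2.54). At an unadjusted p under 0.05, edgeR gave 1 clade B gene lower after miR-22 and 0 lower in treated against healthy livers, and DESeq2 and limma called 0 in both. Serpinb9b, Serpinb9e and Serpinb9f, with 0 to 3 counts over the healthy livers, passed the filter only through the HCC groups, and 3 of the other 5 tested clade B genes were higher in each comparison with healthy livers. With those low genes at the lower bound of their fold, the clade B medians against healthy livers were 1.62 in untreated and 1.64 in treated HCC. The clade B counts and medians over tested genes cannot be read as a property of the clade.

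**Figure D3:**
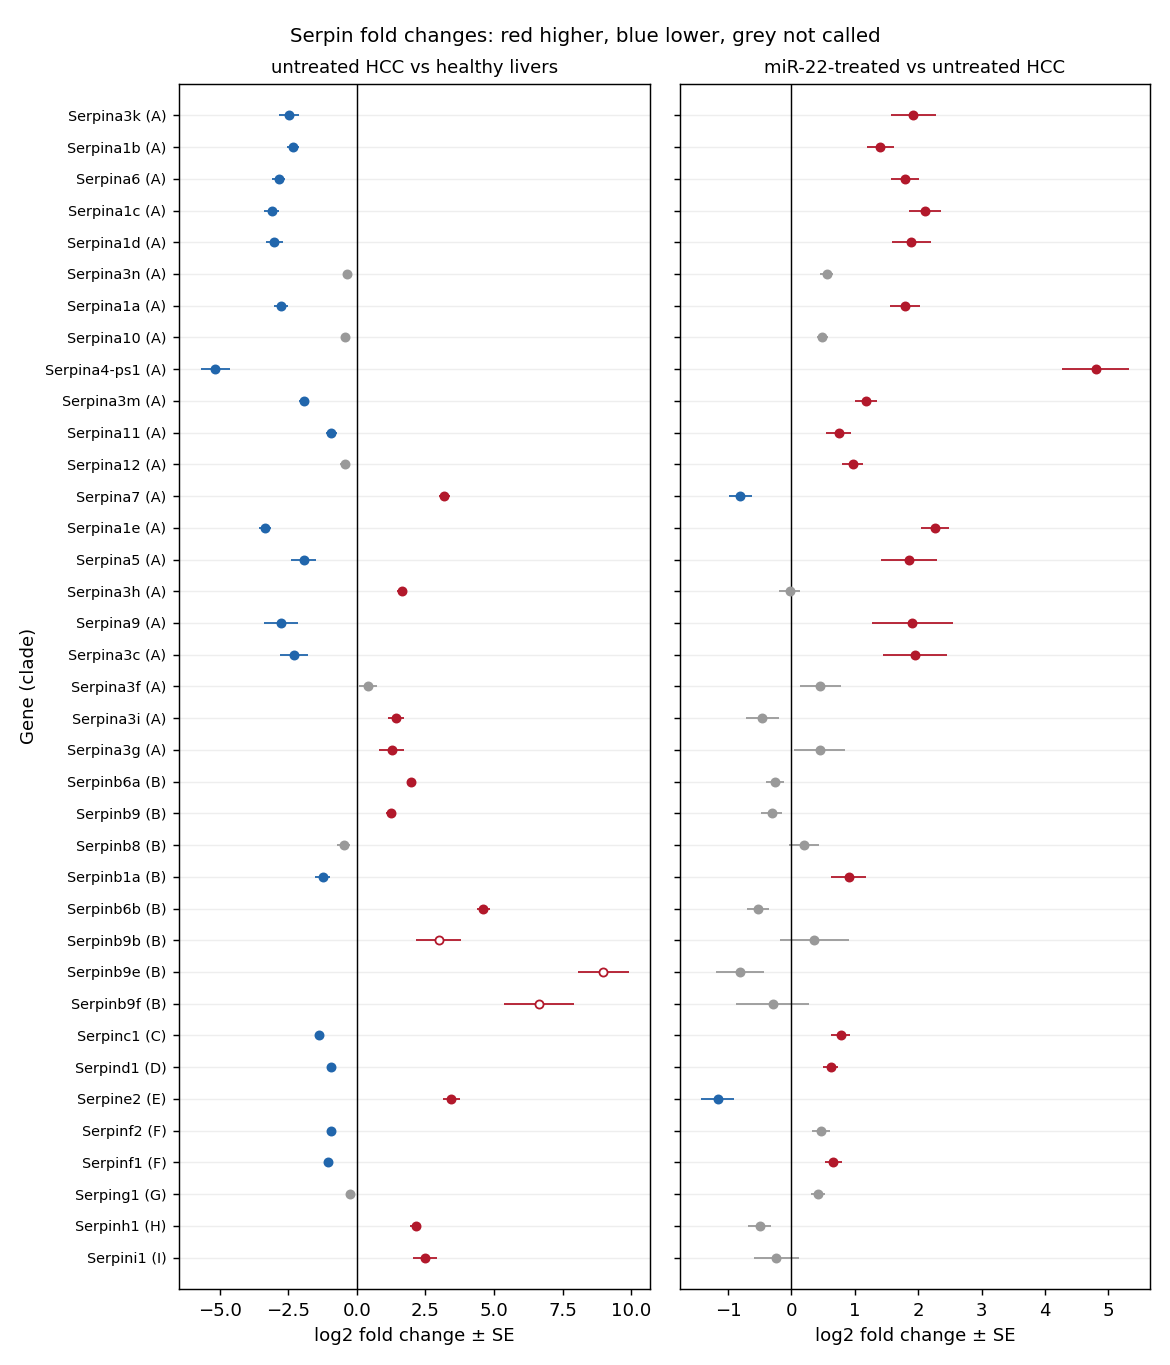
Log2 fold change ± SE of the same 37 serpins in untreated HCC against healthy livers (left) and miR-22-treated against untreated HCC (right), sorted as in the plot of levels, in red and blue for called rises and falls and grey for genes not called. Open points (Serpinb9b, Serpinb9e, Serpinb9f) have a fitted fold change against healthy livers with 0 or almost 0 counts, which is set by the prior count and is no estimate of size.

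All 5 α1-antitrypsin copies fell in untreated HCC and rose after miR-22, and all stayed lower than in healthy livers. The main target of α1-antitrypsin is the neutrophil protease elastase. Serpina1b, the most abundant copy, read at 1324, 1429.7 and 1289.9 CPM in healthy livers, 227, 203 and 369.8 in untreated HCC and 770.1, 805 and 544 in treated HCC. The 3 groups did not overlap, untreated replicate 4 was the highest of its group and treated replicate 4 the lowest of its group. The log2 fold change was -2.34 ± 0.22 (SE, adjusted p = 1.99e-06) in untreated HCC and 1.41 ± 0.21 (SE, adjusted p = 0.000887) after miR-22, and -0.93 ± 0.21 (SE, adjusted p = 0.00414) between treated and healthy livers. Serpina1a, at 318, 269.7 and 293 CPM (healthy), 38.1, 29.3 and 62.8 CPM (untreated) and 159.8, 179 and 113 CPM (treated), showed the same order without overlap. Serpina1c read at 618, 413 and 548 CPM in healthy livers, 56.8, 41.9 and 85.2 in untreated and 227, 347 and 218 in treated HCC. Serpina1d read at 477, 360.1 and 374 CPM (healthy), 43.1, 29.8 and 77.7 CPM (untreated) and 217, 223 and 121 CPM (treated). In both, the treated libraries lay between the other groups without overlap. Serpina1e was the lowest copy at 15, 13.2 and 14.8 CPM in healthy livers, 1.22, 1.48 and 1.49 in untreated HCC and 7.66, 7.78 and 4.95 after treatment, again in separate ranges.

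Across these copies the falls in untreated HCC ran from -2.34 for Serpina1b to -3.35 for Serpina1e on the log2 scale, and the rises after miR-22 from 1.41 for Serpina1b to 2.27 for Serpina1e. Treated against healthy values ran from -1.11 (Serpina1d) to -0.93 (Serpina1b). With the replicate number as a block in the fit, Serpina1a, Serpina1c and Serpina1d were no longer called there. Tested against a fold of 1.5 (glmTreat), Serpina1a to Serpina1d were not called there either. The edgeR adjusted p of each copy was at most 5.67e-06, 0.00124 and 0.0114 in the 3 comparisons, the highest being that of Serpina1d. Summed over the copies, which removes reads exchanged between them, the level was 2586 ± 145 CPM (SD, n = 3) in healthy livers, 423 ± 154 in untreated HCC and 1314 ± 286 in treated HCC. By edgeR's quasi-likelihood test the sum changed by -2.61 ± 0.24 (log2, SE; adjusted p = 1.64e-06), 1.64 ± 0.23 (adjusted p = 0.000633) and -0.98 ± 0.23 (adjusted p = 0.00499) in the 3 comparisons. Serpina1b held 48.1 to 57.5% of the summed CPM in the healthy, 61.9 to 66.4% in the untreated and 51.5 to 55.8% in the treated libraries, so its share was highest where the sum was lowest.

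Among the α1-antichymotrypsin-like copies, Serpina3k and Serpina3m fell in untreated HCC and rose after miR-22, while Serpina3n stayed within the fold threshold. Serpina3k, a plasma serpin that binds tissue kallikrein, read at 10721, 6467 and 6481 CPM in healthy livers, 1269.8, 743 and 2273 in untreated HCC and 5474, 6755 and 4035 in treated HCC. Untreated libraries lay below both other groups, whereas treated replicate 3 lay within the healthy range. Its log2 fold change was -2.47 ± 0.36 (SE, adjusted p = 8.57e-05) in untreated HCC, 1.92 ± 0.36 (SE, adjusted p = 0.00258) after miR-22, and -0.54 ± 0.34 (SE, adjusted p = 0.244) for treated against healthy livers, which was not called. Serpina3m read at 184, 182 and 175 CPM (healthy), 37.4, 39.7 and 63.5 CPM (untreated) and 114, 113 and 90.3 CPM (treated), with log2 changes of -1.94, 1.17 and -0.77, all called and without overlap.

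Serpina3n, an acute-phase serpin that inhibits granzyme B and leukocyte elastase, read at 334, 306 and 317 CPM in healthy livers, 248, 272 and 232 in untreated HCC and 352, 409.6 and 346 in treated HCC. Untreated libraries were the lowest and treated ones the highest, with no overlap. The log2 changes of -0.35 ± 0.11 (SE, adjusted p = 0.0128) and 0.56 ± 0.11 (SE, adjusted p = 0.00285) passed the adjusted p but not the fold of 1.5 in either comparison. Without treated replicate 2, treated replicate 4 or untreated replicate 3, the change after miR-22 became 0.59, 0.60 and 0.62 and was then called. As Serpina3k fell, Serpina3n went from 2.97 to 4.54% of the summed Serpina3 CPM in the healthy group to 8.96 to 25.3% in the untreated and 5.61 to 7.70% in the treated group. Serpina3k itself held 92.8 to 95.3%, 69.1 to 87.9% and 89.8 to 92.5% of that sum. The summed Serpina3 level changed by -2.27 ± 0.31 in untreated HCC (edgeR, adjusted p = 5.12e-05), 1.76 ± 0.31 after miR-22 (adjusted p = 0.00186) and -0.50 ± 0.30 for treated against healthy livers (adjusted p = 0.211).

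The low Serpina3 genes of the same cluster did not all move the same way. Serpina3c, chosen by its fold change, read at 4.65, 1.45 and 2.36 CPM in healthy livers, 0.656, 0.179 and 0.859 in untreated HCC and 2.17, 1.98 and 2.52 in treated HCC, with called changes of -2.28 and 1.95. Untreated libraries were the lowest without overlap, and the rise after miR-22 rests on them, since without untreated replicate 3 it was 1.54 (edgeR adjusted p = 0.0545). The next 4 tested genes along the chromosome, Serpina3f to Serpina3i, are named here after their values were seen. Serpina3g encodes an intracellular inhibitor of cysteine cathepsins. Serpina3g read at 0.44, 0.378 and 0.824 CPM (healthy), 1.55, 1.43 and 1.08 CPM (untreated) and 0.915, 2.42 and 2.19 CPM (treated), and Serpina3i at 0.943, 0.882 and 1.21 CPM (healthy), 3, 2.82 and 2.39 CPM (untreated) and 2.12, 1.53 and 2.28 CPM (treated). For both, all HCC libraries stood above all healthy ones. Serpina3h, a transcribed pseudogene, read at 4.02, 2.9 and 4.62 CPM (healthy), 13.4, 13.2 and 9.86 CPM (untreated) and 11.7, 11.5 and 12.4 CPM (treated), again with all HCC libraries above the healthy ones.

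In untreated HCC the log2 rises were 1.65 ± 0.19 (SE, adjusted p = 9.46e-06) for Serpina3h and 1.42 ± 0.28 (SE, adjusted p = 0.000933) for Serpina3i. The value for Serpina3g was 1.27 ± 0.46 (SE, adjusted p = 0.0304), from 7, 6 and 15 healthy counts against 33, 32 and 29 untreated ones, and it passed the filter only through the HCC libraries. None of these genes was called after miR-22, with values of 0.45, -0.03 and -0.46, and all 3 were called higher in treated than in healthy livers, at 1.72, 1.62 and 0.96. The Serpina3g call in untreated HCC was lost without healthy replicate 1 or 2 or untreated replicate 2 or 3, with adjusted p of 0.093, 0.108, 0.0839 and 0.0707 in edgeR's test. The Serpina3i call in treated livers was lost without healthy replicate 1 or 2 or treated replicate 2 or 4 (adjusted p = 0.0599, 0.0726, 0.0576 and 0.0795). Serpina3f, at 3.83, 1.51 and 2.09 CPM (healthy), 4.03, 2.46 and 3.32 CPM (untreated) and 3.72, 5.87 and 3.95 CPM (treated), overlapped between groups and was not called in any comparison by the edgeR fit used throughout. In treated against healthy livers it was called by DESeq2 (0.83, adjusted p = 0.044), by limma (0.93, adjusted p = 0.0441) and by edgeR with no filter on low counts (0.87, adjusted p = 0.0122). Leaving out healthy replicate 1, its highest healthy library, brought it past both thresholds, at 0.84 in untreated and 1.29 in treated HCC. In GENCODE vM39 all 31-base words of Serpina3h also occur in another gene ID at the same place, so its counts depend on the annotation used.

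These genes lie together in a run of 28 clade A genes on chromosome 12, within 800 kb (chr12:103580578-104380597, GRCm39), of which 20 were tested. From Serpina10 at the start to Serpina5 and Serpina3c in the middle, no tested gene rose in untreated HCC. Serpina3f to Serpina3i followed without a fall, and Serpina3k and Serpina3m beyond them fell again. Serpina7, the other clade A gene, lies on chromosome X.

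**Figure D4:**
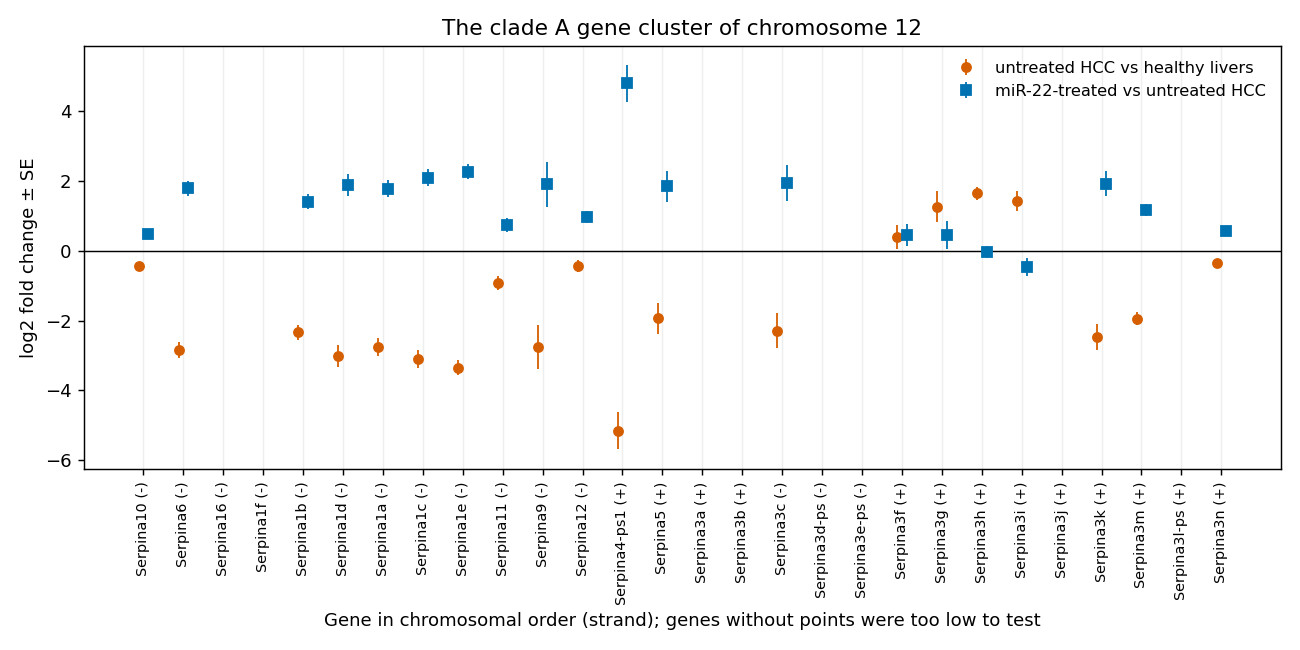
Log2 fold change ± SE of the clade A genes of chromosome 12 in their order along the chromosome, for untreated HCC against healthy livers (circles) and miR-22-treated against untreated HCC (squares). Serpina3g, Serpina3h and Serpina3i sit above 0 in untreated HCC between the low Serpina3c and Serpina3k.

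RefSeq promoters, 250 bases before to 50 after each start, were given for 54 of the 69 serpin genes and were searched for TTCNNNGAA, the palindromic motif of STAT factors, which reads the same on both strands. It was present in 8.298% of 32851 mouse promoters. By gene, 9.554% of 27025 genes and 8 of the 54 serpins held it in at least 1 promoter. The windows below are shown because Serpina3g and Serpina3i, neighbours with higher counts in HCC, and Serpina3f between Serpina3c and them share the motif and most of the bases after it. Capitals mark the motif, its centre lies at position -117, -29 and -98 from the RefSeq start (build GRCm38.p6), and the positions given are matches to GRCm39.
Serpina3f (chr12:104180672-104180701, plus strand): tcagttctatTTCCTAGAAatcacccattt
Serpina3g (chr12:104202363-104202392, plus strand): taagttatagTTCCCAGAAatcacccggtc
Serpina3i (chr12:104229269-104229298, plus strand): taagtgcttgTTCCCAGAAatcacccagtc

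The other serpins with the motif were Serpina11, Serpina1f, Serpinb2, Serpinb6a and Serpinb9c. The Serpina1a to Serpina1e, Serpina3c and Serpina3n promoters in the table did not hold these letters, and Serpina3h, Serpina3k and Serpina3m had no promoter entry. A match is a description of the letters alone.

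The largest serpin change in either direction outside genes at 0 in healthy livers was that of Serpina4-ps1, a transcribed pseudogene in the place of the human kallistatin gene. It read at 298, 122 and 241 CPM in healthy livers, 1.87, 4.88 and 11.4 in untreated HCC and 201, 212 and 103 in treated HCC. Treated replicates 2 and 3 lay inside the healthy range, replicate 4 lay just under it, and every untreated library lay far below. The log2 fold change was -5.16 ± 0.53 (SE, adjusted p = 4.46e-06) in untreated HCC, 4.80 ± 0.53 (SE, adjusted p = 0.000164) after miR-22 and -0.36 ± 0.43 (SE, adjusted p = 0.552) between treated and healthy livers, where it was not called. Its raw counts of 40, 109 and 304 in the untreated libraries against 1943 to 4742 in the healthy ones show the depth behind this. In GENCODE vM39 its sequence is fully contained in another gene ID at the same place.

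The hormone carriers of the family moved in opposite directions. Serpina6, corticosteroid-binding globulin, read at 539, 821 and 731 CPM in healthy livers, 68.1, 95.6 and 126 in untreated HCC and 334, 389 and 285 in treated HCC, in 3 separate ranges. Its log2 fold change was -2.85 ± 0.22 (SE, adjusted p = 5.36e-07) in untreated HCC, 1.80 ± 0.22 (SE, adjusted p = 0.000252) after miR-22 and -1.05 ± 0.21 (SE, adjusted p = 0.00207) between treated and healthy livers. Serpina7, thyroxine-binding globulin, read at 19.1, 18.5 and 12.5 CPM (healthy), 183, 136 and 136 CPM (untreated) and 69.6, 81.4 and 109 CPM (treated). Here the untreated libraries were the highest and the treated ones lay between the groups without overlap. It rose by 3.19 ± 0.20 (SE, adjusted p = 1.11e-07) in untreated HCC, fell after miR-22 with -0.80 ± 0.18 (SE, adjusted p = 0.00796), and stayed higher than in healthy livers with 2.38 ± 0.20 (SE, adjusted p = 2.75e-06).

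Serpina5, the protein C inhibitor, was low at 7.23, 3.15 and 2.25 CPM in healthy livers, 1.41, 1.03 and 0.859 in untreated HCC and 3.95, 5.55 and 2.47 in treated HCC. Healthy and treated ranges overlapped and the untreated range lay below both, with called changes of -1.94 and 1.85. Without treated replicate 3 the rise after miR-22 was 1.55 with an edgeR adjusted p of 0.0523. Serpina12, vaspin, an adipokine that inhibits a tissue kallikrein, read at 84.7, 78.6 and 64.8 CPM (healthy), 49.9, 48.9 and 69.2 CPM (untreated) and 98.8, 137 and 94.4 CPM (treated). The treated libraries were the highest of all and did not overlap either group, while the untreated range reached into the healthy one. It rose after miR-22 by 0.97 ± 0.17 (SE, adjusted p = 0.00165), while the changes of -0.44 in untreated HCC and 0.53 in treated against healthy livers stayed within the fold threshold. Without untreated replicate 4 the former was called at -0.62, and without healthy replicate 1, treated replicate 2 or treated replicate 4 the latter was called at 0.60, 0.59 and 0.63.

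Serpina11 read at 187, 127 and 117 CPM in healthy livers, 65.3, 60.7 and 100.5 in untreated HCC and 129, 137 and 116 in treated HCC. It fell in untreated HCC (-0.93) and rose after miR-22 (0.75 ± 0.20 (SE, adjusted p = 0.0166)), with treated and healthy livers overlapping. The latter call was lost without treated replicate 3 or untreated replicate 2 or 3 (edgeR adjusted p = 0.0648, 0.0765 and 0.0805). Serpina9, a serpin known from germinal centre B cells and named after its values were seen, read at 5.28, 1.76 and 2.03 CPM (healthy), 0.234, 0.179 and 0.859 CPM (untreated) and 2.35, 1.91 and 0.809 CPM (treated). It fell in untreated HCC (-2.76), whereas its rise after miR-22 (1.90 ± 0.64 (SE, adjusted p = 0.0472)) overlapped between the groups, and its adjusted p ran from 0.0122 to 0.159 over the fits that each left out 1 library.

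Of the plasma inhibitors of coagulation proteases, Serpinc1 and Serpind1 fell in untreated HCC and rose after miR-22, while Serpina10 stayed within the fold threshold. Serpinc1, antithrombin, which inhibits thrombin and factor Xa, read at 2639.6, 2626 and 2671 CPM in healthy livers, 996, 823 and 1237 in untreated HCC and 1798, 1928 and 1509 in treated HCC. The healthy libraries agreed closely, and the 3 ranges did not overlap. Its log2 fold change was -1.38 ± 0.16 (SE, adjusted p = 1.08e-05) in untreated HCC, 0.78 ± 0.16 (SE, adjusted p = 0.00409) after miR-22 and -0.60 ± 0.16 (SE, adjusted p = 0.0095) between treated and healthy livers. Without treated replicate 4 this last value was -0.51, and with at least 10 counts required in every library -0.57, both under the fold threshold. With the replicate number as a block its edgeR adjusted p was 0.0834. Serpinc1 overlaps an antisense gene and the libraries do not mark strand, so reads of the 2 genes cannot be fully told apart.

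Serpind1, heparin cofactor II, which inhibits thrombin, read at 765, 824 and 785 CPM in healthy livers, 407, 398 and 447 in untreated HCC and 680.4, 699.5 and 546 in treated HCC. The ranges were separate. It fell in untreated HCC (-0.92 ± 0.12 (SE, adjusted p = 2.69e-05)) and rose after miR-22 by 0.62 ± 0.12 (SE, adjusted p = 0.00295), close to the fold threshold. Serpind1 missed that threshold without treated replicate 2 (0.58) or 3 (0.56) and with upper-quartile normalization (0.58). Serpina10, the protein Z-dependent inhibitor of factor Xa, read at 276, 252 and 275 CPM (healthy), 201, 187 and 209 CPM (untreated) and 282, 288 and 269.9 CPM (treated). Untreated libraries were the lowest without overlap, at -0.43 ± 0.09 (SE, adjusted p = 0.0015) and 0.49 ± 0.09 (SE, adjusted p = 0.00263), both past the adjusted p but under the fold threshold.

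The coagulation proteases that these serpins meet moved in the same directions in the liver RNA. Of 8 listed genes (F2, F7, F9, F10, F11, F12, Klkb1 and Proc), 8 fell in untreated HCC with a median log2 fold change of -1.28. After miR-22, 6 rose with a median of 0.75. Of all tested genes, 18.1% fell and 8.32% rose in these comparisons, and the 11 hepatocyte markers had medians of -1.06 and 0.58. Klkb1, plasma kallikrein, changed by -1.94 ± 0.20 (SE) and 1.25 ± 0.20. F7 changed by -1.57 ± 0.15 and 0.77 ± 0.14, and Proc, protein C, by -1.27 ± 0.13 and 0.79 ± 0.13. In treated against healthy livers, F7, F11 and Klkb1 were still lower and the other 5 were not called.

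The complement and contact system inhibitor Serping1, the C1 inhibitor, changed least in untreated HCC among the tested clade A to G serpins. It read at 873, 759.7 and 737 CPM in healthy livers, 686, 624 and 691 in untreated HCC and 878, 922 and 873 in treated HCC. Untreated libraries were the lowest and treated ones the highest, and treated replicate 4 stood level with the highest healthy library. The changes of -0.24 ± 0.11 (SE, adjusted p = 0.0741) and 0.42 ± 0.11 (SE, adjusted p = 0.0157) were not called, the latter for its size. Its protease partners moved further in untreated HCC. All 6 listed complement proteases fell in untreated HCC (median -1.02), and 4 of the 6 rose after miR-22 (median 0.65). The shares of all tested genes were 18.1% and 8.32%. Masp2, a lectin pathway protease, changed by -1.57 ± 0.13 and 0.82 ± 0.13, and C1ra by -0.95 ± 0.13 and 0.70 ± 0.13.

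Among the inhibitors of fibrinolysis, Serpinf2, α2-antiplasmin, read at 998, 953 and 952 CPM in healthy livers, 477, 445 and 586 in untreated HCC and 780.3, 743 and 562 in treated HCC. The untreated range was the lowest and overlapped the treated one at treated replicate 4, and both lay under the healthy range. It fell in untreated HCC (-0.94 ± 0.14 (SE, adjusted p = 0.000118)), and the change after miR-22 of 0.47 ± 0.14 (SE, adjusted p = 0.0331) was under the fold threshold. Without treated or untreated replicate 4 it was called at 0.60 and 0.59.

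Serpine2, protease nexin 1, which inhibits thrombin and plasminogen activators at cell surfaces, read at 3.02, 2.84 and 3.35 CPM (healthy), 37.8, 42.5 and 19.8 CPM (untreated) and 15.6, 9.95 and 18.9 CPM (treated). The HCC ranges lay above the healthy range and just apart from each other. It rose by 3.44 ± 0.31 (SE, adjusted p = 1.44e-06) in untreated HCC, fell after miR-22 with -1.16 ± 0.26 (SE, adjusted p = 0.00735), and stayed above healthy livers with 2.27 ± 0.31 (SE, adjusted p = 0.000136). Untreated replicate 4 was the lowest of its group for Serpine2 and also for the summed cholangiocyte markers (3327 CPM, and 88.2 CPM without Spp1), while treated replicate 4 was the highest of its group in those markers (2702 CPM, and 60.4 CPM without Spp1) and in Serpine2. The part of these markers in the Serpine2 values was not tested.

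On the protease side of fibrinolysis, Plg, plasminogen, changed by -1.25 ± 0.17 in untreated HCC and 0.76 ± 0.17 after miR-22. Plat, tissue plasminogen activator, changed by 4.36 ± 0.29 and -0.93 ± 0.22, and Plau, urokinase, by 2.11 ± 0.34 and then -0.73 ± 0.31, the last not called. Of 11 listed cofactors, receptors and other inhibitors, 4 rose and 3 fell in untreated HCC and 3 fell after miR-22. The shares of all tested genes were 22.7%, 18.1% and 5.47%. A2m, the broad protease inhibitor α2-macroglobulin, had 2 counts over the healthy livers and 1933 over the untreated ones, a ratio per effective library size of 686 (95% exact Clopper-Pearson interval 189.6 to 5667, for counting error only). A2m passed the filter only through the HCC groups. After miR-22 it changed by -1.95 ± 0.34 on the log2 scale. Plaur, the urokinase receptor, changed by 3.20 ± 0.33 and -0.84 ± 0.27, and Procr, the protein C receptor, by 3.92 ± 0.44 and -1.24 ± 0.35. Agt, angiotensinogen, a serpin by structure whose symbol does not carry the family name, changed by -0.77 ± 0.10 and then 0.24 ± 0.10, which was not called.

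Serpinf1 and Serpinh1 act outside protease inhibition and moved in opposite directions. Serpinf1, pigment epithelium-derived factor, read at 607, 660.2 and 624 CPM in healthy livers, 292, 255 and 358 in untreated HCC and 482, 523 and 423 in treated HCC, in separate ranges. It fell in untreated HCC (-1.07 ± 0.13 (SE, adjusted p = 2.29e-05)) and rose after miR-22 (0.66 ± 0.13 (SE, adjusted p = 0.00419)), the latter under the fold threshold without treated replicate 3 (0.58) or untreated replicate 3 (0.55). Serpinh1, the collagen chaperone HSP47 of the endoplasmic reticulum, read at 16.2, 13 and 16.6 CPM (healthy), 71.8, 65.6 and 64.8 CPM (untreated) and 38.8, 37.8 and 66.1 CPM (treated). All HCC libraries exceeded the healthy ones, and treated replicate 4 alone lay within the untreated range.

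Serpinh1 rose by 2.14 ± 0.19 (SE, adjusted p = 1.49e-06) in untreated HCC and stayed at 1.64 ± 0.19 (SE, adjusted p = 4.02e-05) against healthy livers in treated HCC. The change after miR-22 of -0.50 ± 0.18 (SE, adjusted p = 0.0622) was not called, and without treated replicate 4 it was -0.81 (edgeR adjusted p = 0.000371) and called. Of 15 listed collagen folding partners, 11 rose in untreated HCC (median 0.90) and 3 fell after miR-22 (median -0.36), against 22.7% and 5.47% of all tested genes. The 3 were Plod2, a collagen lysyl hydroxylase (5.27 ± 0.41, then -1.37 ± 0.29), Sparc, a collagen-binding matrix protein (3.33 ± 0.17, then -0.86 ± 0.16), and Fkbp10, a collagen chaperone (2.24 ± 0.25, then -0.72 ± 0.22). The summed stellate cell markers given above rose in the same libraries, and their part in these values was not tested.

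Of the 29 intracellular clade B serpins, 21 were too low to test, and of the 5 with enough healthy counts for a fold, Serpinb6a, Serpinb6b and Serpinb9 rose in untreated HCC. Serpinb6a, which inhibits cathepsin G, read at 18.5, 18.1 and 17.2 CPM in healthy livers, 82.9, 65.6 and 63.6 in untreated HCC and 50.2, 53.1 and 74.2 in treated HCC. Healthy libraries were the lowest without overlap, and the HCC ranges overlapped at treated replicate 4. Its log2 fold change was 1.98 ± 0.15 (SE, adjusted p = 4.51e-07) in untreated HCC, -0.25 ± 0.14 (SE, adjusted p = 0.224) after miR-22 and 1.73 ± 0.15 (SE, adjusted p = 4.15e-06) in treated against healthy livers. The related Serpinb6b started from 1.89, 1.26 and 1.87 CPM and read at 53, 37 and 33.4 in untreated and 25.2, 25.6 and 34.6 in treated HCC, with overlap between the HCC groups only. It rose by 4.61 ± 0.24 (SE, adjusted p = 2.52e-08), and the change after miR-22 (-0.53 ± 0.18 (SE, adjusted p = 0.0489)) was under the fold threshold. Without treated or untreated replicate 4 this change was called at -0.69 and -0.66.

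Serpinb9, the inhibitor of granzyme B, read at 7.92, 12.8 and 9.45 CPM in healthy livers, 26.9, 23.5 and 20.4 in untreated HCC and 17.7, 22.2 and 17.3 in treated HCC. Both HCC groups stood above the healthy range and overlapped each other. It rose by 1.23 ± 0.17 (SE, adjusted p = 6.39e-05) in untreated HCC and was 0.92 ± 0.18 (SE, adjusted p = 0.00149) against healthy livers in treated HCC. Serpinb9e, a tandem relative, had no counts in any healthy library and read at 4.26, 1.79 and 3.66 CPM in untreated and 1.89, 2.42 and 1.28 in treated HCC. Against a floor of 3 counts in each healthy library, its level was at least 17.9-fold higher in untreated and at least 10.3-fold higher in treated HCC. Serpinb9f, with 0 healthy counts too, and Serpinb9b, with 0 in 2 healthy libraries, read at 0.486 to 0.844 and 0.403 to 0.750 CPM in untreated HCC. Serpinb9f was at least 3.52-fold higher in untreated HCC. Serpinb9b had 3 counts over the healthy and 36 over the untreated livers, a ratio of 8.51 (95% exact interval 2.69 to 43.2). Serpinb9f shared 87.3% and Serpinb9e 46.2% of 31-base words with other serpins, so single copies of this cluster are uncertain. The summed Serpinb9 genes rose by 1.498 ± 0.179 in untreated HCC (edgeR adjusted p = 1.49e-05), with a change of -0.35 ± 0.17 after miR-22 (adjusted p = 0.158).

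Serpinb1a, an inhibitor of neutrophil elastase and cathepsin G, was the only tested clade B gene that fell in untreated HCC. It read at 3.58, 6.05 and 3.24 CPM in healthy livers, 1.92, 1.88 and 1.64 in untreated HCC and 4.06, 3 and 3.14 in treated HCC, with the untreated range below both others. Its changes were -1.24 ± 0.27 (SE, adjusted p = 0.00194) and, after miR-22, 0.91 ± 0.28 (SE, adjusted p = 0.0322). The second call was lost without any 1 of treated replicates 2 and 3 or untreated replicates 2, 3 and 4 (edgeR adjusted p from 0.0196 to 0.115 over all fits without 1 library). Serpinb8, which inhibits furin, read at 6.85, 5.92 and 5 CPM (healthy), 4.64, 4.52 and 3.59 CPM (untreated) and 6.75, 4.02 and 3.85 CPM (treated) and was not called in any comparison. Among the proteases of these inhibitors, Prtn3, a neutrophil serine protease, was the 1 testable gene of 5 listed and was called higher in untreated HCC. It had 3 counts over the healthy and 74 over the untreated livers, a ratio of 17.5 (95% exact interval 5.76 to 86.8), and passed the filter only through the HCC groups. Gzma, a granzyme, fell with -1.81 ± 0.54 while Gzmb was not called (-0.48 ± 0.40). The 11 neutrophil markers summed to 1.83 to 4.65 CPM (healthy), 18.2 to 23.9 CPM (untreated) and 18 to 27.6 CPM (treated). The 10 macrophage markers, with 3 higher and 1 lower in untreated HCC, summed to 403 to 502 CPM (healthy), 553 to 593 CPM (untreated) and 606 to 640 CPM (treated). The 12 T and NK cell markers summed to 7.69 to 11 CPM (healthy), 9.23 to 10 CPM (untreated) and 8.74 to 12.6 CPM (treated). The part of these lists in the clade B values was not tested.

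Of the cysteine cathepsins met by some intracellular serpins, Ctss and Ctsk rose in untreated HCC, with 1.08 ± 0.12 and 1.55 ± 0.32, and none of the 4 listed was called after miR-22 by edgeR, DESeq2 or limma, with 1 at an unadjusted edgeR p under 0.05. Among 6 testable cell-surface and other serine proteases, 3 rose and 1 fell in untreated HCC, and 1 rose and 1 fell after miR-22. Of all tested genes, 22.7% rose and 18.1% fell in the first comparison, and 8.32% rose and 5.47% fell in the second. St14, matriptase, changed by 4.70 ± 0.38 and -0.96 ± 0.27, and Tmprss6, matriptase-2 of hepatocytes, by -0.99 ± 0.14 and 0.60 ± 0.14.

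Serpini1, neuroserpin, which inhibits tissue plasminogen activator, was close to the detection limit at 0.44, 0.126 and 0.22 CPM in healthy livers, 1.41, 1.34 and 1.68 in untreated HCC and 1.14, 1.08 and 1.52 in treated HCC. All HCC libraries were above the healthy ones and the HCC groups overlapped. It had 7, 2 and 4 counts in the healthy libraries against 30, 30 and 45 in untreated HCC and passed the filter only through the HCC libraries. The fitted change was 2.48 ± 0.44 (SE, adjusted p = 0.000394) in untreated HCC, and it was not called after miR-22 (-0.23 ± 0.35 (SE, adjusted p = 0.679)).

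The 31 genes under the filter were 8 of clade A, 21 of clade B, Serpine3 and Serpini2. The 7 without any counts were Serpinb1-ps1, Serpinb13, Serpinb3b, Serpinb3d, Serpinb6d, Serpinb6e and Serpinb9h. The highest total was 38 counts, for Serpinb1c. Serpinb9c and Serpinb9d, of the granzyme B inhibitor cluster, had 15 and 19 counts over the untreated livers, 6 and 9 over the treated ones and 0 in every healthy library. Serpinb5, maspin, known as an epithelial tumour suppressor, had 0 to 3 counts per library, and Serpinb2, plasminogen activator inhibitor 2, had 0 to 7.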

How the data were processed

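Total RNA of whole liver was made into non-directional NEBNext Ultra II libraries. Per the labels and the study's methods, the authors checked reads with FastQC 0.11.7, quantified transcripts with Salmon, summed them to genes on GRCm39, and used DESeq2 1.18. The deposited values used here are the gene counts, whole numbers without normalization, estimated from reads that Salmon can split among near-identical copies. A second deposited table, of scaled values, was not used.

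Counts of all 55401 genes were filtered by expression within groups, scaled by TMM and fitted for all 9 libraries together with edgeR 4.0.16 (R 4.3.3), which assumes a spread common to the 3 groups, by the quasi-likelihood test with Benjamini-Hochberg adjustment over 15717 genes. A call needed an adjusted p under 0.05 and a fold over 1.5. CPM are TMM-normalized. Fold bounds use a floor of 3 counts per library where a group is at 0. Genes with 1 to 3 counts over the healthy group are given as a ratio of summed counts with an exact 95% interval. Both cover counting error only. Totals of 16664659 to 23908392 counts per library set the precision, and with 3 livers per group the p-values cover the spread between these livers. No pair of replicates agreed within sampling noise. The script was tested on simulated data with 200 changed genes.

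Named with full values were the plasma and intracellular serpins listed by symbol, plus the 8 called members with the largest fold per comparison whose groups did not overlap and whose higher group held at least 10 counts per library. Of the 38 tested serpins, 37 are shown in the plots and 1 is not reported here, while the counts and medians over serpins include it. Members and lists were chosen with earlier results of these data known. Sequences came from GRCm39 and GENCODE vM39, and promoters from RefSeq on GRCm38.p6. Levels per kb use the exon length of GENCODE vM39. Of 12 hepatocyte markers listed, 11 were found. Alternatives comprised other scalings, filters, tools (DESeq2 1.42.0, limma 3.58.1), copies summed, a replicate block and leaving out each library.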

Additional observations from a re-analysis of the deposited data

How the results depend on the processing

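Results were recomputed under 20 settings, 9 of them leaving out 1 library. The 14 higher serpins in untreated HCC became 9 when genes needed at least 10 counts in every library, and 7 with near-identical copies summed, where there are fewer genes to count. In treated HCC against healthy livers, where the fit gave 14 higher and 8 lower, the same changes gave 9 and 7 higher, and summing gave 3 lower. With copies summed, each sum is counted as a gene in place of its copies. Testing against a fold of 1.5 (glmTreat) gave 9 higher and 0 lower after miR-22 (3 lower at an unadjusted p under 0.05, and 3 called by DESeq2 and by limma), where the fit gave 18 and 3, and 2 lower in treated against healthy livers. Of all 15717 genes it called 468 after miR-22 and 2010 in treated against healthy livers. The minimum of 10 counts called 4873 and 2678 of 12836 genes in untreated and treated HCC against healthy livers, and summing copies 6406 and 3763 of 15702. Leaving out a library gave 12 to 20 higher and 3 to 5 lower after miR-22, the 5 without treated replicate 4. Same-numbered untreated and treated livers correlated at -0.227 to -0.116 in their deviations from the group means, and other untreated and treated pairs at -0.0194 to 0.128. With 3 livers per group this check cannot decide whether the numbers pair the samples. A replicate block gave 12 higher and 18 lower in untreated HCC, 17 and 3 after miR-22, and 12 and 4 in treated against healthy livers, where all genes called in either direction numbered 5863, 1745 and 3044 of 15717, against 6417, 2167 and 3772 without it. With the block, Serpina1a, Serpina1c, Serpina1d, Serpina3g, Serpina3i, Serpinb9b and Serpinc1 were no longer called in treated against healthy livers (edgeR adjusted p = 0.0552, 0.0578, 0.0921, 0.0723, 0.138, 0.0609 and 0.0834), nor were Serpina3g and Serpinb9b in untreated HCC (0.102 and 0.0611) and Serpina9 after miR-22 (0.0802), while Serpina3f was called in treated against healthy livers (1.35, adjusted p = 0.0336). Over all tested serpins and settings, 719, 678 and 693 values kept direction and side of the threshold in the 3 comparisons. In the same order, 8, 36 and 22 values lost their call, 5, 13 and 11 gained one, and 0, 4 and 6 changed sign. Signs turned for values that were not called. In treated against healthy livers Serpina5 was 0.025 by limma and 0.77 with the replicate block and ran from -0.40 to 0.54 over the fits without 1 library, while Serpina11 ran from -0.32 to 0.041 and Serpina3c from -0.66 to 0.20, each highest without healthy replicate 1. After miR-22 Serpina3h ran from -0.16 to 0.047 (highest without untreated replicate 2), Serpinb8 from -0.11 (without treated replicate 2) to 0.35 and Serpinb9f from -0.76 to 0.14 (without treated replicate 4). The cause was not tested. The share of counts on all 69 serpins moved by less than 1 SD under other denominators, but shares of single clades moved by more, as with healthy clade B, at 0.00389% without Alb counts against 0.00355%. At this depth, genes under about 1 CPM rest on few reads.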

Other observations

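Serpins of tissues other than liver appeared in single libraries. Healthy replicate 3 alone held counts of Serpinb3a (9), Serpinb3c (6), Serpinb12 (13) and Serpinb11 (4), clade B genes known from squamous epithelium, and no other library held any. The same library held 11 counts of Krt14, 8 of Krt1 and 4 of Trp63, keratinocyte genes, where the other 8 libraries held 0 to 6, 0 to 2 and 0 to 1. The other 3 squamous markers did not stand above every other library, with 4 counts of Krt5, 23 of Krt10 and 2 of Dsg3 against 0 to 14, 12 to 41 and 0 to 2. The 6 squamous markers summed to 2.86 CPM in it and to 0.756 to 2.69 CPM in the others.

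Serpini2, a serpin of pancreatic acinar cells, had 22 counts in miR-22-treated replicate 2 and 0 in the other 8 libraries. That library also held 907 counts of Cpa1, 894 of Prss2, 1126 of Pnlip, 1588 of Ctrb1 and 984 of Cel, which encode pancreatic digestive enzymes, and the 7 acinar markers summed to 385 CPM in it against 19.6 to 44.5 CPM in the others. Cela1 made up 66.9 to 100% of that sum in the other libraries. Untreated replicate 4 also held these genes, with 56 counts of Cpa1, 53 of Prss2, 46 of Pnlip, 89 of Ctrb1 and 55 of Cel, where the healthy libraries held 0 to 3. Untreated replicate 2 held 15, 19, 16, 8 and 9 counts in the same order. Untreated replicate 3 held 0 to 9, and treated replicates 3 and 4 held 0 to 5. Without Cela1 the markers summed to 314.7 CPM in treated replicate 2, 11.2 CPM in untreated replicate 4 and 0 to 3.14 CPM in the rest. Serpina3k, Serpina1b, Serpinc1 and Serpind1 in treated replicate 2 lay inside the range of treated replicates 3 and 4. Serpinf2 (780.3 against 743 and 562 CPM) and Serpina3m (113.9 against 113.3 and 90.3 CPM) lay above it. Serpina7 lay below it (69.6 against 81.4 and 109 CPM).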
